A study of Pinus pinaster with 30 samples.

Results

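Transcripts of nucleotide sugar synthesis were followed in developing embryos of *Pinus pinaster* (maritime pine) through 5 array spots. The spots 7.2.19.18, 6.1.20.17, 2.3.23.10 and 3.4.19.15 carried cDNA clones matched to EMB101, the Arabidopsis GDP-mannose pyrophosphorylase AT2G39770, which is also called CYT1, GMP1 and VTC1. The spot 7.3.21.21 carried a clone annotated as UDP-D-glucuronate 4-epimerase 2, whose nearest Arabidopsis locus was AT4G00110. They were 5 of the 26496 spots on the array, and all were taken because the study listed them as falling over development, so the fall itself is described below and was not put to a test of its own.

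GDP-mannose pyrophosphorylase joins mannose 1-phosphate to GTP and releases GDP-mannose. In plants this nucleotide sugar feeds mannan and glucomannan synthesis, protein glycosylation, GDP-fucose and the main route to ascorbate, and Arabidopsis embryos that lack the enzyme stop growing with defective cell walls. UDP-D-glucuronate 4-epimerase turns UDP-glucuronate into UDP-galacturonate, the building block of the pectin backbone, so that both enzymes lie upstream of the cell wall on separate branches.

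Dominant zygotic embryos were isolated from immature cones of open-pollinated trees in a clonal orchard, and every sample pooled 60 embryos. The collection days were Day0 (early embryos, stages T0 to T2), Day5 (pre-cotyledonary, T3 and T4), Day11 (early cotyledonary, T4B), Day15 (cotyledonary, T5) and Day25 (mature, T7), with 3 biological samples a day and 2 technical replicate arrays a sample, 30 arrays in all. No group was treated or mutant, and all came from the same orchard and season, from a few trees at each date. On each array Cy3-labelled RNA of the embryos was hybridised together with a Cy5-labelled reference pool holding RNA of all biological samples, always in the same dye orientation. RNA had been amplified in sequential rounds. The array carried cDNA of loblolly pine (*Pinus taeda*) root and needle, so that hybridisation was between species. Each value below is the log2 of embryo signal divided by pool signal, averaged over the arrays of a sample. A value above 0 means more normalised signal in that sample than in the pool. The pool held RNA of all days, so 0 need not be the true pool level of a spot always above it. Ratios of different spots say nothing of which transcript is more abundant. Whole embryos were measured, so fewer cells that express a gene and less RNA per cell cannot be told apart.

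Spots with both quality marks of the scanner software made up 41.0% to 70.5% of an array. The markers of late embryos were 3 spots of late embryogenesis abundant (LEA) proteins taken from the study's tables. Their averages followed the labels, which is no independent check, since those tables were drawn from these same arrays. Spot 5.1.11.10 averaged 1.34 at Day25 and -1.04 at Day0, another averaged 1.09 at Day25 and -1.50 at Day0, and spot 7.1.15.15, measured too rarely for a test, averaged 1.26 at Day25 and -1.12 at Day0. No markers of the megagametophyte, the storage tissue around the embryo, were used, and a carry-over of that tissue was not tested. The Day0 sample of replicate 1 stood highest of the 3 Day0 samples in all 5 spots described here. The same sample was highest in 45.1% of the 2843 spots that fell between Day0 and Day25 (adjusted p under 0.05, limma) and had a value in every Day0 sample. The part of this sample in the falls was not tested, and values without it are given below.

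The 5 spots lay in separate print tips, 32, 17, 27, 38 and 41 in the order given above, and were thus printed by different pins. Spots 7.2.19.18, 6.1.20.17 and 2.3.23.10 were assigned to the same *P. pinaster* unigene, a transcript assembled from the maritime pine sequence collection, whereas 3.4.19.15 and the epimerase spot were each assigned to a unigene of their own. Spot 6.1.20.17 was also assigned to a unigene annotated as a DEAD-box RNA helicase, because the ends of its clone matched different transcripts. Spotted cDNA can bind transcripts of near-identical copies, so the signal of one EMB101 spot may hold that of another. The weakest Cy3 signal was 9.47 times the local background in the epimerase spot, 13.1 times in 3.4.19.15 and more in the other EMB101 spots. The weakest Cy5 signal, that of the reference pool, was lower on the arrays that passed the quality marks. It was 3.53 times the local background in the epimerase spot, 3.79 times in 3.4.19.15, 5.96 times in 2.3.23.10 and more in the other EMB101 spots. The ratios were taken without background correction. No signal reached the scanner ceiling. Technical replicate arrays of a sample differed by a median of 0.07 to 0.15 across the 5 spots, and by at most 0.35.

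The 3 EMB101 spots that share a unigene were highest in early embryos, dropped first towards Day5 and again towards Day11, and then stayed nearly level in 6.1.20.17 and 2.3.23.10. Spot 7.2.19.18 had ratios of 1.80, 1.36 and 1.63 at Day0, then 0.49, 0.70 and 0.81 at Day5 and 0.22, 0.30 and 0.32 at Day11. It had 0.35 and 0.25 in the 2 Day15 samples and 0.20 and -0.23 in the 2 Day25 samples that passed the quality marks. The values of Day0, Day5 and Day11 formed separate ranges, although the step from Day5 to Day11 had an adjusted p of 0.18 (limma). The share of all tested spots with separate ranges on neighbouring days is not given here. Such gaps are therefore a description only, in this spot and in those below. The Day25 samples had ratios of either sign. In the samples that did not pass, the unfiltered ratio was 0.14 at Day15 and -0.18 at Day25.

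Spot 6.1.20.17 had 1.64, 1.08 and 1.32 at Day0, then 0.68, 0.50 and 0.56 at Day5 and 0.11, 0.38 and 0.29 at Day11. It had 0.37, 0.34 and 0.28 at Day15, and 0.39, 0.20 and 0.28 at Day25. The last 3 collection days overlapped, and the ratio of this spot was positive in every sample. The pool held RNA of these same days, so the positive sign alone does not place a day above the pool.

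In spot 2.3.23.10 the samples of a day lay close together. It had 1.09, 0.98 and 1.05 at Day0, 0.47, 0.44 and 0.46 at Day5, and 0.32, 0.28 and 0.25 at Day11. It had 0.35 and 0.22 in the 2 Day15 samples with a value, and 0.23, 0.27 and 0.34 at Day25. Day5 lay apart from the days on both sides, although its step to Day11 had an adjusted p of 0.39 (limma). From Day11 onwards the day means differed by less than the SD of any of these days, being 0.29 ± 0.04 at Day11 (SD, n = 3), 0.28 ± 0.09 at Day15 (SD, n = 2) and 0.28 ± 0.06 at Day25 (SD, n = 3).

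The EMB101 spot with a unigene of its own had a small mean difference between Day5 and Day0 and lower means on the later days. Spot 3.4.19.15 had 0.53, 0.44 and 0.50 at Day0, 0.26, 0.38 and 0.37 at Day5, and -0.35, 0.13 and 0.30 at Day11. It had -0.07, 0.06 and -0.24 at Day15, and -0.18, -0.34 and -0.23 at Day25. The Day0 and Day5 ranges lay side by side without overlap, although the step between them had an adjusted p of 0.55 (limma). Day11 was the widest day with an SD of 0.34. All 3 mature samples had negative ratios.

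The epimerase spot showed the largest change of the 5, most of it between Day0 and Day5. Spot 7.3.21.21 had 2.36, 1.44 and 1.40 at Day0, and -0.31, -0.47 and -0.22 at Day5. It had -0.69, -0.85 and -0.80 at Day11, -1.07, -0.71 and -0.93 at Day15, and -0.59, -1.09 and -1.57 at Day25. The epimerase had positive ratios in early embryos only, and negative ratios in every sample from Day5 on. The spread was widest at the ends of the series, with SDs of 0.55 at Day0 and 0.49 at Day25, where the replicate 1 samples were the highest on both days.

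**Figure D1:**
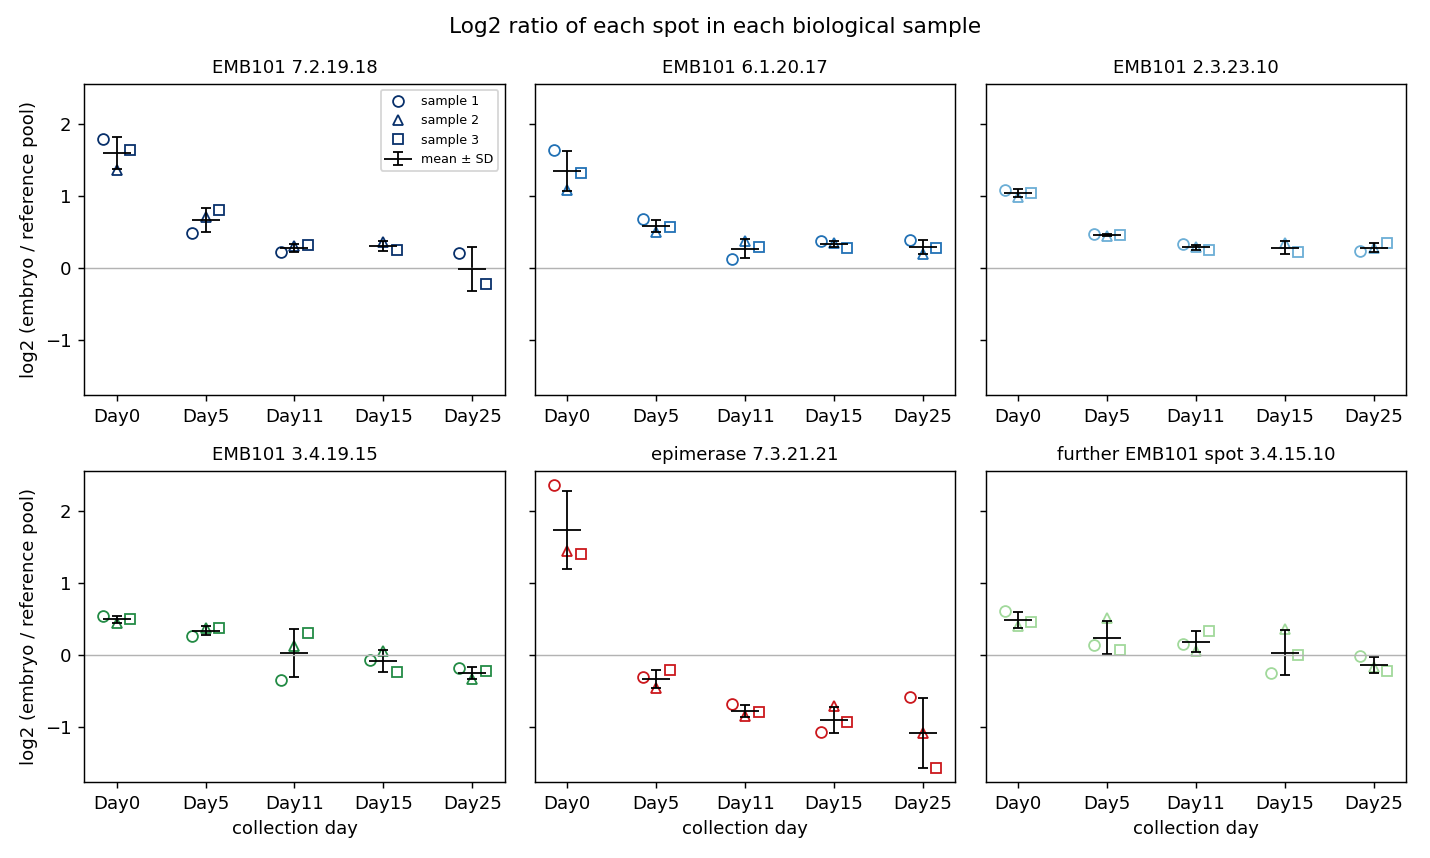
Log2 ratio of embryo over reference pool (vertical axis) on each collection day (horizontal axis) for the 5 spots and for a further EMB101 spot, 3.4.15.10. Open symbols are the biological samples, and bars give the day mean ± SD over the 2 or 3 samples with a value. The epimerase drops below 0 between Day0 and Day5, the EMB101 spots 6.1.20.17 and 2.3.23.10 level off above 0 from Day11, and 3.4.19.15 declines in small steps.

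The sizes of the changes were compared as differences of day means from limma with 95% intervals. From Day0 to Day25 the epimerase fell by 2.82 on the log2 scale (95% interval -3.34 to -2.30), a fold of 7.07. The EMB101 spots fell by 1.61 (-1.97 to -1.25) for 7.2.19.18, by 1.06 (-1.35 to -0.77) for 6.1.20.17, by 0.76 (-0.97 to -0.54) for 2.3.23.10 and by 0.74 (-1.06 to -0.43) for 3.4.19.15, which are folds of 3.05, 2.09, 1.69 and 1.67. The 3 spots that share a unigene thus spanned a range from 1.69-fold to 3.05-fold. All 5 were called down at an adjusted p under 0.05, where 23.6% of all 14513 tested spots were called down. In all 5 the Day25 values lay below every Day0 value, as in 28.1% of tested spots. Since this contrast chose the spots, nothing is read from these counts. Without the Day0 sample of replicate 1 the differences were -2.51 for the epimerase, -1.51 for 7.2.19.18, -0.92 for 6.1.20.17, -0.73 for 2.3.23.10 and -0.72 for 3.4.19.15.

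The share of the change reached by a day did not follow the size of the change, as a description of day means given without intervals. By Day5 the epimerase had passed through 73.2% of its Day0 to Day25 difference, 2.3.23.10 through 77.1%, 6.1.20.17 through 72.4% and 7.2.19.18 through 57.9%, whereas 3.4.19.15 stood only 0.16 below its Day0 mean, of the 0.74 it lost in all. With 1 sample left out in turn, the Day5 share was 67.3% to 80.1% for the epimerase and 74.1% to 79.9% for 2.3.23.10. It was 68.1% to 77.0% for 6.1.20.17 and 51.0% to 66.8% for 7.2.19.18. The ranges of the epimerase, 2.3.23.10 and 6.1.20.17 overlapped, so no order among them is read. By Day11 the shares were 89.1% for the epimerase, 99.2% for 2.3.23.10, 102% for 6.1.20.17, 82.0% for 7.2.19.18 and 62.6% for 3.4.19.15. Thus the Day11 means of 6.1.20.17 and 2.3.23.10 lay close to their Day25 means, and the Day11 mean of 3.4.19.15 lay between those of Day0 and Day25. The share of 3.4.19.15 at Day11 rested on 1 scattered day, since the replicate 1 sample was below every Day25 value, and it was 37.3% without that sample. That of 7.2.19.18 was 72.3% without replicate 1 of Day25 and 94.8% without replicate 3 of Day25. The step from Day11 to Day25 was not tested.

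In steps between neighbouring days, the change from Day0 to Day5 was -2.07 ± 0.25 (SE) for the epimerase, -0.93 ± 0.15 for 7.2.19.18, -0.77 ± 0.14 for 6.1.20.17, -0.58 ± 0.10 for 2.3.23.10 and -0.16 ± 0.15 for 3.4.19.15. These steps were called in 4 of the 5 spots, with 4.76% of all tested spots called down, and not in 3.4.19.15. With log2 ratios scaled to equal spread, the steps of 6.1.20.17 and 2.3.23.10 were -0.44 and -0.36 and were not called. From Day5 to Day11 the means of all 5 spots were lower by 0.17 to 0.45, with no step called, and 0.689% of all spots were called down. The step from Day11 to Day15 lay between -0.12 and 0.07, and limma called 0 of the tested spots on the array at this step, with 857 of them at an unadjusted p under 0.05. From Day15 to Day25 it lay between -0.31 and 0.00, again with no call among the 5, and 3.50% of all spots were called down. Over the longer span from Day5 to Day25, falls of 0.76 for the epimerase, 0.68 for 7.2.19.18 and 0.59 for 3.4.19.15 were called, with 20.7% of all spots called down, and those of 0.29 for 6.1.20.17 and 0.17 for 2.3.23.10 were not. The same days chose the spots, so these calls are given as a description.

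**Figure D2:**
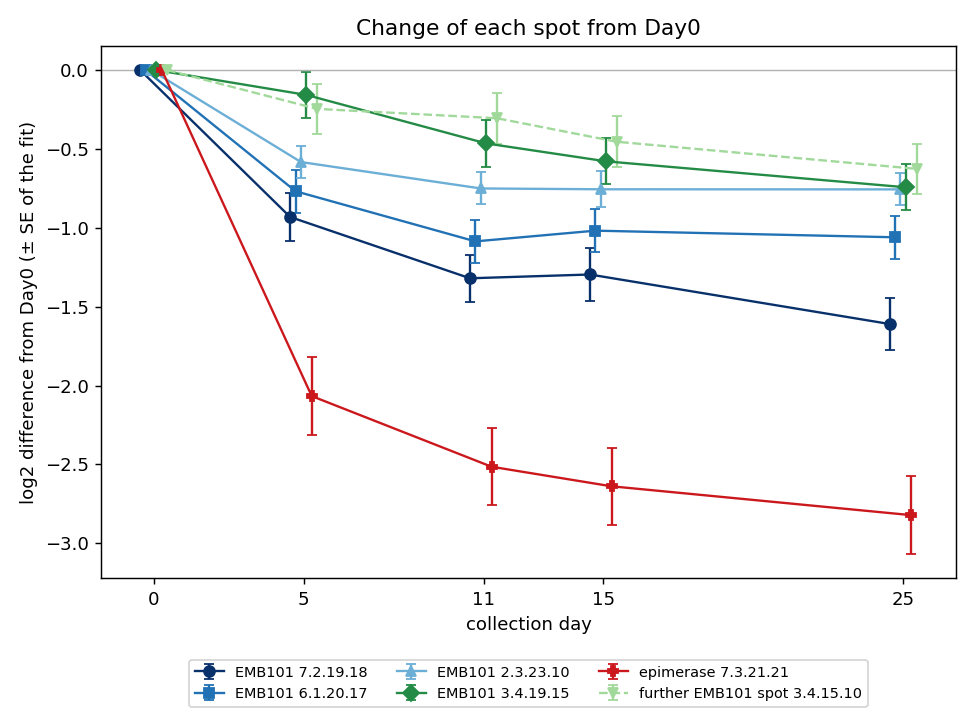
Difference of each spot from its Day0 mean on the log2 scale (vertical axis, ± SE of the limma fit) against collection day (horizontal axis). The epimerase reaches -2.07 at Day5 and -2.82 at Day25, whereas 3.4.19.15 and the further EMB101 spot 3.4.15.10, shown with a broken line, decline slowly to -0.74 and -0.63.

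Differences between spots were then taken within each sample, after its arrays had been averaged, and 10 pairs were compared. What is common to the spots of an array is removed only where both spots kept the same arrays. In replicate 1 of Day5, for example, the epimerase kept 1 array and 2.3.23.10 kept 2. The EMB101 spots rose relative to the epimerase mainly between Day0 and Day5, the step at which the epimerase itself fell by 2.07. The share of all spots that rose against it at this step is not given here. The step is therefore not read as particular to EMB101. Spot 2.3.23.10 minus the epimerase averaged 0.78 at Day5 and -0.70 at Day0, a difference of 1.48 (95% interval 0.85 to 2.11). From Day5 to Day25 the same pair changed by 0.58 (-0.05 to 1.21, adjusted p = 0.11, limma). For the pair of 3.4.19.15 and the epimerase the step from Day0 to Day5 was 1.91 (1.27 to 2.55). It was followed by 0.17 (-0.47 to 0.81) from Day5 to Day25, although the day means of both spots went on falling. Single samples of both spots overlapped between these later days.

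Over the whole span, the epimerase fell more than each EMB101 spot, by 1.21 (0.55 to 1.86) against 7.2.19.18, 1.76 (1.18 to 2.34) against 6.1.20.17, 2.07 (1.44 to 2.69) against 2.3.23.10 and 2.08 (1.44 to 2.72) against 3.4.19.15. All 4 differences were called. So were 99% of all spots when set against the epimerase, so that the calls are not particular to EMB101.

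**Figure D3:**
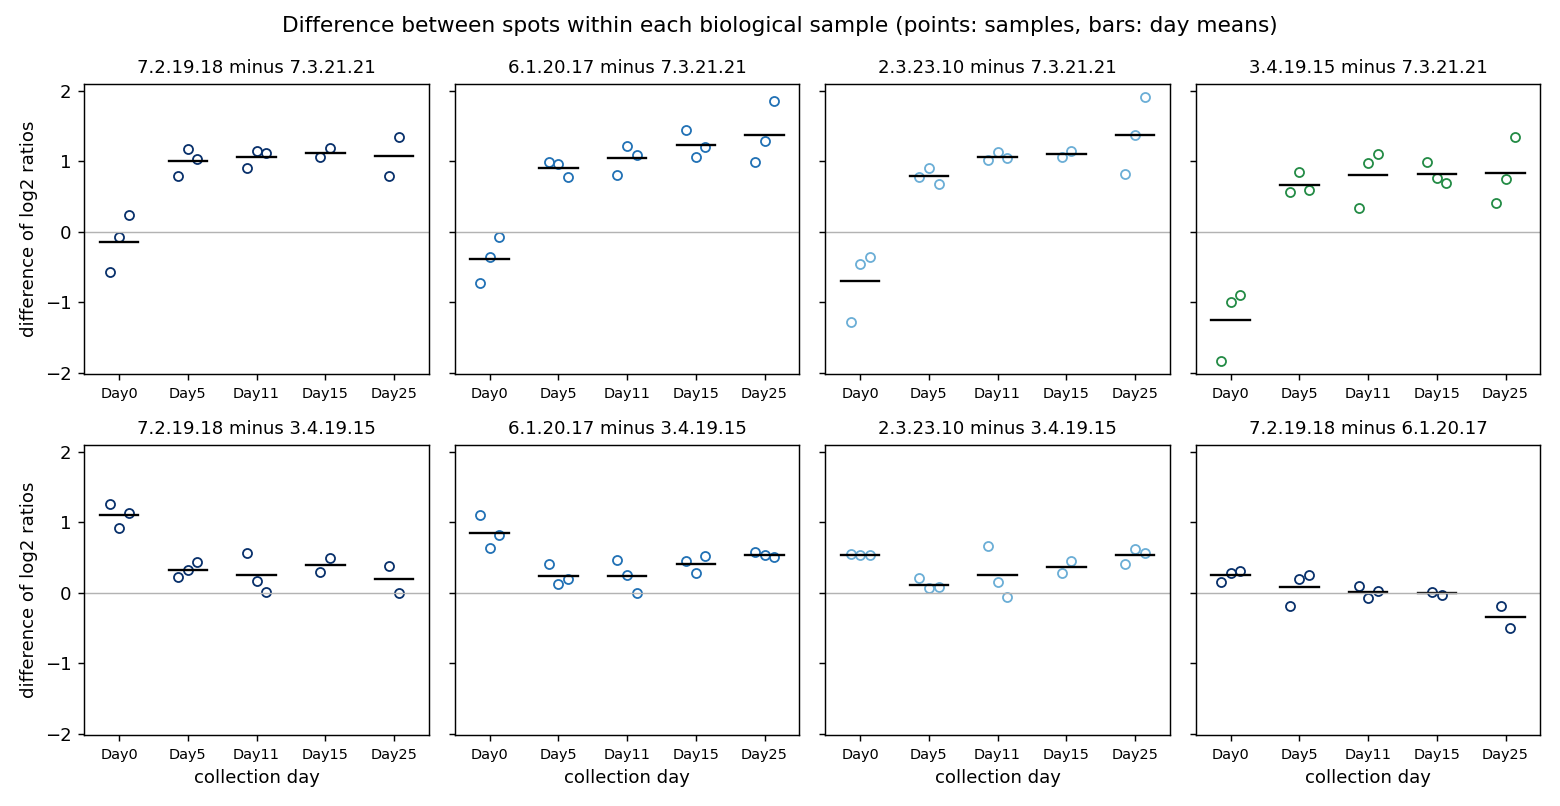
Difference of log2 ratios between a pair of spots within each sample (vertical axis) on each collection day (horizontal axis), with points for samples and bars for day means. In the upper row the EMB101 spots minus the epimerase step up between Day0 and Day5. From Day5 to Day25 their means rise further by 0.07 to 0.58, with no change called. In the lower row 7.2.19.18 and 6.1.20.17 lie furthest above 3.4.19.15 at Day0.

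Among the EMB101 spots, 7.2.19.18 fell more than 3.4.19.15. Their difference was 0.39 and 0.00 in the Day25 samples with both values, against 1.26, 0.92 and 1.13 at Day0, a change of -0.91 (-1.38 to -0.44, adjusted p = 0.0016, limma), and 3.78% of all spots were called down against 3.4.19.15. Most of it was reached by Day5, with a change of -0.77 (-1.20 to -0.35, adjusted p = 0.036, limma), where 1.31% of all spots were called down. For 6.1.20.17 against 3.4.19.15 the change over the whole span was -0.32 (-0.71 to 0.08) and for 2.3.23.10 it was -0.01 (-0.42 to 0.40). Neither was called, and the intervals leave room for differences of up to 0.71 and 0.42. Their steps up to Day5 differed from that of 3.4.19.15 by -0.61 (-1.01 to -0.22, adjusted p = 0.078) and -0.43 (-0.84 to -0.02, adjusted p = 0.25), neither of them called by limma.

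The 3 spots of the shared unigene did not change by the same amount either. Spot 7.2.19.18 fell more than 2.3.23.10, by -0.86 (-1.23 to -0.48, adjusted p = 0.00056, limma), with 4.51% of all spots called down against 2.3.23.10. It also fell more than 6.1.20.17, by -0.59 (-0.99 to -0.19, adjusted p = 0.0083, limma), with 2.29% of all spots called down, but without the Day25 sample of replicate 3 that difference was -0.44 and was not called (adjusted p = 0.11). Spot 6.1.20.17 against 2.3.23.10 gave -0.30 (-0.60 to -0.01) and was not called (adjusted p = 0.060). These pairs were chosen after the values had been seen. Since spots of 1 unigene differed by up to -0.86, the difference of -0.91 between 7.2.19.18 and 3.4.19.15 is not read as one between unigenes.

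Across the samples the ratios of the 3 EMB101 spots of the shared unigene ran closely together and with the epimerase, as a description over samples that share the array and the collection day. Pearson's r was 0.95 between 7.2.19.18 and 6.1.20.17 (13 samples), 0.94 between 7.2.19.18 and 2.3.23.10 (13 samples), 0.96 between 6.1.20.17 and 2.3.23.10 (14 samples), and 0.95 to 0.97 between each of the 3 and the epimerase (13 to 15 samples). With 3.4.19.15 it was 0.73 to 0.82 for the 3 EMB101 spots and 0.75 for the epimerase. After the day means were removed, r with the epimerase was 0.75 for 7.2.19.18, 0.60 for 6.1.20.17, 0.06 for 2.3.23.10 and 0.07 for 3.4.19.15, lower than over all samples in each case. Among the 3 EMB101 spots it was 0.58 for 7.2.19.18 with 6.1.20.17, 0.31 for 6.1.20.17 with 2.3.23.10 and -0.02 for 7.2.19.18 with 2.3.23.10.

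Named spots with the profiles most like these were found among 687 to 858 candidates, those named in the study's tables of changed genes. A xyloglucan endotransglucosylase hydrolase protein A spot, 7.1.22.16, was closest to 7.2.19.18 (r = 0.99, 12 samples) and to 6.1.20.17 (r = 0.98, 14 samples), and its ratio fell by 2.43 from Day0 to Day25. Such enzymes cut and rejoin the xyloglucan chains of the cell wall. The epimerase was closest to another spot of this family, the probable xyloglucan endotransglucosylase hydrolase protein 23 in 5.4.7.15 (r = 0.99, 13 samples), which fell by 5.15, then to a serine carboxypeptidase-like 45 spot, 3.1.6.18 (r = 0.98, 15 samples), and a zinc ion binding protein, 1.1.7.20 (r = 0.98, 13 samples). The serine carboxypeptidase-like spot was also second for 7.2.19.18 (r = 0.99, 13 samples), ahead of a glutamine synthetase, 3.1.8.7 (r = 0.98, 12 samples).

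A glutathione S-transferase-like spot, 7.1.21.13, which fell by 5.84, was closest to 2.3.23.10 (r = 0.98, 14 samples) and among the nearest to 6.1.20.17 (r = 0.97, 15 samples), as was 6.1.21.7, annotated both as a universal stress protein and as a dehydration-induced 19-like protein (r = 0.98, 13 samples). Next to 2.3.23.10 were a spot of the vesicle trafficking protein Sec22 (r = 0.98, 14 samples) and a ubiquitin domain protein (r = 0.98, 12 samples). Spot 3.4.19.15 had looser neighbours, with r = 0.93 for 10.1.6.9, a transmembrane protein (15 samples), 0.92 for 5.3.1.3, a cysteine proteinase (15 samples), and 0.91 for 5.2.21.4, a quinone reductase (12 samples). None of its neighbours was shared with the other 4 spots.

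The remaining nucleotide sugar genes were given by a list of 26 further spots taken from the study's tables, in which most stood because they changed or resembled an Arabidopsis profile, so their direction is no independent evidence. Of these, 15 had enough values for the test. From Day0 to Day25, 10 fell, 2 rose and 3 were not called, against 23.6% of all spots called in each direction. Their median difference was -0.63, with -0.02 over all tested spots. Without the Day0 sample of replicate 1, which was highest at Day0 in 11 of the 14 list spots with all 3 values, 8 fell and 2 rose. Over all samples left out in turn, 7 to 10 fell and 2 rose. These values without a sample, for the list and for the shares by Day5 and Day11, were added after the data had been seen.

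A further spot of GDP-mannose pyrophosphorylase, 3.4.15.10, matched to AT2G39770 through yet another unigene, changed by about as much as 3.4.19.15. This further spot lay in the same print tip, 38, and was thus normalised together with 3.4.19.15. It was also dim, with weakest signals of 8.26 times the local background in Cy3 and 2.18 times in Cy5. It had -0.02, -0.18 and -0.23 at Day25, against 0.60, 0.39 and 0.45 at Day0, and fell by 0.63 (adjusted p = 0.0048, limma). It had covered 39.2% of this difference by Day5 and 48.8% by Day11. In between, its samples scattered, with 0.14, 0.51 and 0.07 at Day5, 0.15, 0.05 and 0.34 at Day11, and -0.26, 0.36 and -0.01 at Day15. KJC1 (3.1.12.16), a relative of GDP-mannose pyrophosphorylase that in Arabidopsis promotes the activity of the enzyme, had -0.26, -0.13 and -0.23 at Day25, against 0.60, 0.61 and 0.51 at Day0. It fell by 0.78 (adjusted p = 2.5e-05, limma).

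On the ascorbate branch, the L-galactose-1-phosphate phosphatase VTC4 (6.1.18.8) had a difference of -0.30 that was not called (adjusted p = 0.13, limma). The GDP-L-galactose phosphorylase VTC2 (2.2.7.16), which commits GDP-sugars to ascorbate, had too few values for the test, with 1.11 in the single Day25 sample and 1.29, -0.08 and 0.69 at Day0.

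Among the enzymes that interconvert UDP-sugars, 4 of 5 tested spots of the list fell, where 23.6% of all tested spots were called down. This count is likewise not read as a result about the class, given how the list was drawn. The UDP-arabinose mutase RGP1 (2.2.20.16), which supplies UDP-arabinofuranose, had -0.64, -1.04 and -1.54 at Day25, against 1.34, 0.76 and 0.92 at Day0. Its fall of 2.08 ± 0.25 (SE) was the largest of the list (adjusted p = 1.4e-05, limma). UDP-glucose 6-dehydrogenase makes UDP-glucuronate, the substrate of the epimerase. Its spot UGD4 (9.4.3.17) had -0.07, -0.33 and -0.32 at Day25, against 1.67, 0.26 and 0.69 at Day0, and fell by 1.12 (adjusted p = 0.0016, limma). UGD3 (1.2.13.20) had 0.74, 0.22 and -0.04 at Day25, against 1.47, 0.44 and 1.12 at Day0, and fell by 0.70 (adjusted p = 0.026, limma) with overlapping ranges. The UDP-xylose synthase UXS5 (4.4.21.22), which uses the same substrate as the epimerase, had 0.28, 0.06 and -0.08 at Day25, against 1.21, 0.34 and 0.61 at Day0, and fell by 0.64 (adjusted p = 0.0080, limma). In all 3 spots replicate 1 was the highest at Day0. Without that sample the difference was -0.72 for UGD4 and -0.39 for UXS5, both still called, and -0.47 for UGD3, which was not called (adjusted p = 0.12, limma). The UGD3 call was also lost without replicate 3 of Day0 (-0.65) and without replicate 2 (-0.66) or replicate 3 (-0.53) of Day25. The UDP-glucose 4-epimerase UGE1 (9.1.14.10), which forms UDP-galactose, dipped and came back. It had 1.37, 0.68 and 0.74 at Day0, -0.02, -0.78 and -0.63 at Day5, -0.53 and -0.48 in the 2 Day11 samples with a value, -0.36, -0.39 and -0.27 at Day15, and 0.70, 0.83 and 0.65 at Day25. The UGE1 spot thus fell between Day0 and Day5 (adjusted p = 0.00099, limma) and rose by 1.07 between Day15 and Day25 (adjusted p = 0.0046, limma), so that the difference of -0.20 between Day25 and Day0 was not called (adjusted p = 0.42, limma). A galacturonosyltransferase spot, GAUT11 (8.1.4.21), of a family that builds pectin from UDP-galacturonate, differed by -0.16 and was not called (adjusted p = 0.40, limma).

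Nucleotide sugar transporters carry the activated sugars into the endomembrane system. They fell in 4 of 4 tested spots of the list, where 23.6% of all tested spots were called down. The list came from the study's tables, so the count is not read as a result about transporters. The UDP-galactose and UDP-glucose transporter UTR3 (5.4.4.10) fell by 1.23, the UDP-xylose transporter UXT3 (3.4.19.21) by 0.81, the transporter of AT5G65000 (4.3.22.5) by 0.44 (adjusted p = 0.028, limma) and the UDP-rhamnose and UDP-galactose transporter URGT1 (6.1.4.6) by 0.40 (adjusted p = 0.036, limma). UTR3 was lowest at Day15, with a mean of -0.65, and averaged -0.11 at Day25. UXT3 had 0.60, -0.05 and -0.09 at Day25, against 1.40, 0.61 and 0.89 at Day0. The call of 4.3.22.5 was lost without replicate 1 of Day0 (-0.28), replicate 3 of Day0 (-0.45) or replicate 3 of Day25 (-0.34). That of URGT1 was lost without replicate 3 of Day0 (-0.26) and without replicate 2 (-0.35) or replicate 3 (-0.41) of Day25. The 2 spots that rose belong to the synthesis of KDO, a rare sugar of the pectin rhamnogalacturonan II. CMP-KDO synthetase (1.1.7.13) had 0.67 and 0.68 in the 2 Day25 samples with a value, against -0.58, -0.95 and -0.79 at Day0, and rose by 1.45 (adjusted p = 7.6e-06, limma). KDO-8-phosphate synthase (5.2.5.10) had 0.57, 0.40 and 0.01 at Day25, against -0.61, -0.55 and -0.59 at Day0, and rose by 0.91 (adjusted p = 0.00028, limma).

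**Figure D4:**
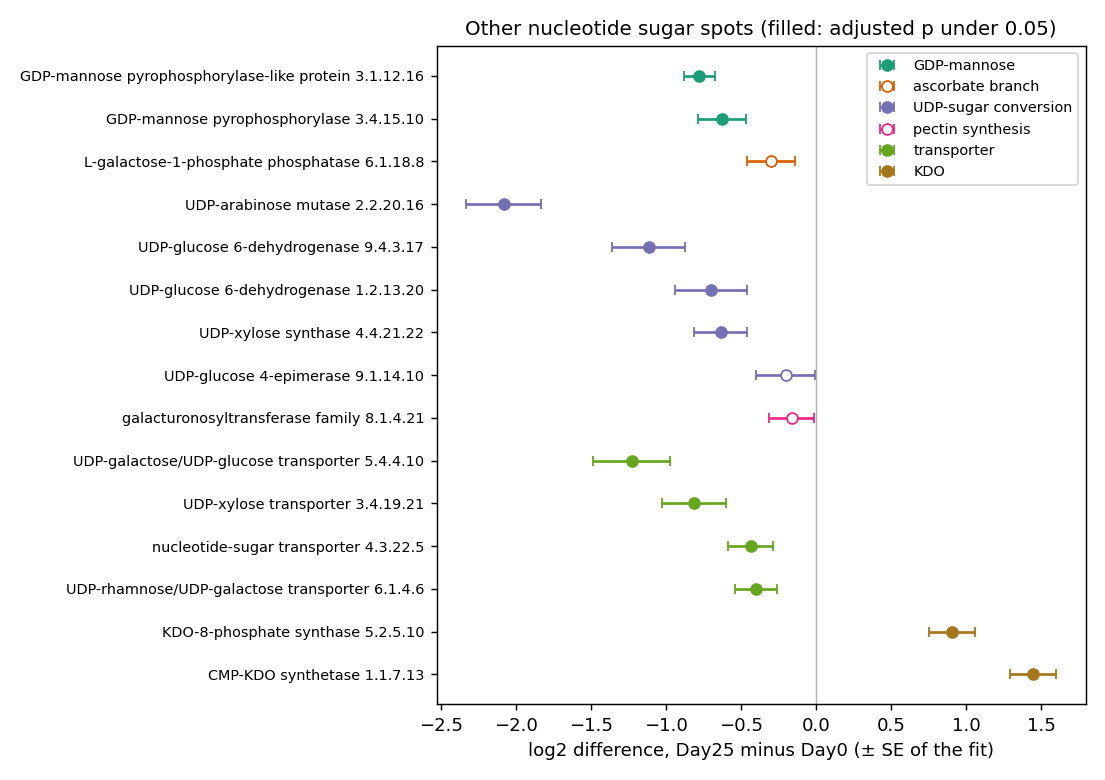
Log2 difference between Day25 and Day0 (horizontal axis, ± SE of the limma fit) for the 15 tested spots of the list, grouped by role, with filled points at an adjusted p under 0.05. UDP-arabinose mutase lies furthest to the left at -2.08, and the 2 KDO spots alone lie to the right of 0, at 0.91 and 1.45.

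The 11 list spots without a test had fewer than 2 values on at least 1 day. They were the UDP-glucose pyrophosphorylase UGP2 (1.2.13.22), sucrose synthase SUS3 (5.2.15.16), phosphoglucomutase PGM2 (9.2.23.9) and galactokinase, which supply the UDP-sugar pool, together with UGD2 (1.3.12.7), UXS6 (5.3.9.23), the UDP-rhamnose synthase RHM1 (7.1.21.5), VTC2, a second spot each of KDO-8-phosphate synthase and of the AT5G65000 transporter, and a GDP-fucose transporter-like protein (1.1.20.23). RHM1 had -0.41, -0.49 and -0.73 at Day25, against 0.84, 0.36 and 0.50 at Day0. Its Day25 range lay below that of Day0, as in 28.1% of tested spots. The galactokinase had 0.25, 0.15 and -0.02 at Day25, against -0.29 and -0.11 in the 2 Day0 samples with a value. UGD2 was the most scattered, with 0.26 and -1.08 in the 2 Day25 samples with a value, against 2.21, 0.53 and 1.19 at Day0.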

How the data were processed

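The intensity values were deposited by the authors as scanner output for each of the 30 PtGen2 arrays, with Cy3 and Cy5 signal, local background and quality marks (mark columns of 0 and 1) per spot. The authors also deposited log2 ratios, which were used as an alternative. A spot lacking either of the quality marks was set aside on that array. Signals were normalised without background correction by print-tip loess (48 tips, span 0.3, 4 iterations) and cyclic loess between arrays (3 iterations) in limma 3.58.1 under R 4.3.3, and the resulting ratios correlated with the deposited ones at r = 0.993 to 0.999 per array. The 2 arrays of a sample were averaged. Tests covered the 14513 spots that had a ratio in 2 or 3 samples of each day. Day means of all 15 samples were fitted in limma, with Benjamini-Hochberg adjustment over all tested spots and calls at an adjusted p under 0.05. To compare spots, the values of 1 spot were subtracted from every spot in each sample before the fit. The fit was tested on simulated data. With 3 samples a day, and pools from overlapping trees not excluded by the labels, p-values weigh each difference against the spread between these samples. The number of biological samples limits the precision. The spots, the list and the comparisons were chosen with earlier results of these data known. Named were the 5 spots, every spot of the list and, for each of the 5, the 3 tested spots named in the study's tables with the highest r over at least 12 samples. Sequences of the clones were not used here. Alternatives covered background correction, normalisation, quality marks, the deposited ratios, technical correlation, a replicate block and each sample left out.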

Additional observations from a re-analysis of the deposited data

How the results depend on the processing

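From Day0 to Day25 the falls of the 5 spots, and all pair differences that were called against the epimerase or against 3.4.19.15, kept their direction and their call under every alternative that could be fitted. The epimerase ranged from -2.96 to -2.37, 7.2.19.18 from -1.67 to -1.39, 6.1.20.17 from -1.10 to -0.92, 2.3.23.10 from -0.77 to -0.67 and 3.4.19.15 from -0.85 to -0.64, and with 1 sample left out the epimerase ranged from -3.07 to -2.51. Where leaving out a sample left 1 value on a day, that value was assumed to vary like the other days. With values required in all 3 samples a day, 7.2.19.18 and 2.3.23.10 could not be fitted, and the list kept 6 spots, of which 6 fell and 0 rose, because fewer spots were tested. Without the quality marks all 26 list spots were tested, and 14 fell and 4 rose. Over the whole array 3429 spots fell and 3427 rose, against 6742 and 6690 without the marks and 1480 and 1544 with all 3 samples required.

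Replicate numbers were shared across days, but the labels do not say that a number marks a shared tree or pool, and deviations of same-numbered samples correlated between -0.38 and 0.49. With a replicate block the falls were -2.82 for the epimerase, -1.63, -1.06 and -0.76 for the spots 7.2.19.18, 6.1.20.17 and 2.3.23.10 and -0.74 for 3.4.19.15, and no call between Day0 and Day25 changed. Called spots numbered 3386 down and 3414 up.

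Scaled ratios ended the Day0 to Day5 call of 6.1.20.17 (-0.44) and 2.3.23.10 (-0.36) and added a Day5 to Day11 call for 7.2.19.18 (-0.46); the cause was not tested. For 6.1.20.17 minus 2.3.23.10 a call appeared without the quality marks (-0.34), without replicate 2 of Day0 (-0.41) and without replicate 1 of Day25 (-0.38), and leaving out samples gave -0.41 to -0.18. For 7.2.19.18 minus 6.1.20.17 it gave -0.75 to -0.44.

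Small differences changed sign, all without a call. The change of 2.3.23.10 minus 3.4.19.15 was 0.0257 with normexp, 0.00095 with 1 loess per array, 0.12 without the marks and -0.0556 to 0.0473 with samples left out. From Day11 to Day15, 2.3.23.10 gave 0.0768 with normexp, 0.0017 without the step between arrays, 0.0003 with scaling, 0.00059 with the deposited ratios and 0.00045 with the replicate block, and 7.2.19.18 gave -0.0241 without the marks. From Day15 to Day25, 2.3.23.10 gave 0.0639 without the marks, 0.0050 with the deposited ratios and 0.0048 with the technical correlation, and the epimerase gave 0.14 with scaling. With samples left out, the Day11 to Day15 step was -0.0245 to 0.0743 for 7.2.19.18, -0.0052 to 0.13 for 6.1.20.17, -0.0696 to 0.0593 for 2.3.23.10 and -0.30 to 0.024 for 3.4.19.15, and the Day15 to Day25 step was -0.0935 to 0.0027 for 6.1.20.17, -0.0652 to 0.0638 for 2.3.23.10 and -0.43 to 0.0602 for the epimerase.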
